A study of Bruguiera gymnorhiza with 19 samples.

Results

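The 164 probes described here stand for the assembled transcripts of Burma mangrove (*Bruguiera gymnorhiza*) whose names carry a cluster number from 1 to 200. They were chosen by name alone: the scanner file's probe name had to read CL, a number up to 200, and then Contig. All such probes were kept whatever their signal, 164 of the 11997 mangrove probes on the array. They come from 142 clusters, 15 of which have probes for at least 2 contigs. The 976 contigs with cluster numbers above 200 served as the reference, and the remaining 10857 probes stand for single clones.

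Leaf RNA was measured on 1-colour arrays in 6 groups of 3 samples, each group lettered A, B and C. The plants were 3 years and 7 months old in all groups. In the NaCl series the culture water was replaced by 500 mM NaCl and in the sorbitol series by 1 M sorbitol, and leaves were taken at 6 h and 24 h. The 0 h leaves of each series were sampled just before its treatment, so NaCl 0 h and sorbitol 0 h are both untreated. The letters follow the sample titles, and the labels contradict them in other fields for NaCl 24 h C, described as A, and number NaCl 6 h C as the 2nd of its group in 1 field. The labels call the letters biological replicates without saying that they are separate plants, so p-values refer to the spread among the samples as labelled. The RNA of NaCl 0 h C was hybridised a second time, and both arrays were averaged.

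NaCl exposes a plant to sodium and chloride ions and lowers the water potential around its roots. Sorbitol, an uncharged sugar alcohol, lowers the water potential without those ions. A contig is a consensus of overlapping expressed sequence tags, single-pass reads of cDNA clones, and related contigs are joined in a cluster. Transcripts that are abundant in the sampled tissue are read more often in such a collection. The files give neither the number of tags behind a contig nor the way in which clusters were numbered. They pair no probe with a gene name, so no function is given to any contig, and the leaf label could not be checked against marker genes.

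Each contig is represented by a single probe of 35 to 40 bases. The probes of 8 contigs whose values are given for each sample below are shown first, since every result on a contig rests on this stretch. Letters are in the order of the files and taken as 5′ to 3′. Capitals mark the longest run shared with another probe on the array, of at least 16 bases, and lower case letters are in no such run.
CL177Contig1: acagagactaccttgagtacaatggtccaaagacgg
CL82Contig1: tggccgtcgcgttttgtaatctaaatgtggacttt
CL99Contig1: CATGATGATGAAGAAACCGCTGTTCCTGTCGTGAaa
CL73Contig1: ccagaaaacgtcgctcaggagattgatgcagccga
CL139Contig1: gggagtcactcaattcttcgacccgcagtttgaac
CL38Contig1: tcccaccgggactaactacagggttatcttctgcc
CL15Contig1: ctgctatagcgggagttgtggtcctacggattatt
CL192Contig1: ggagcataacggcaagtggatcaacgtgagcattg

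The next set belongs to contigs whose level differed between the NaCl and the sorbitol series already at 0 h. CL7Contig1 and CL10Contig1 carry the same run of 18 bases.
CL14Contig1: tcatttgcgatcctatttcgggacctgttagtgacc
CL13Contig2: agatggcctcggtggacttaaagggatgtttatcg
CL7Contig1: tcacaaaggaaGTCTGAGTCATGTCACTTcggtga
CL10Contig1: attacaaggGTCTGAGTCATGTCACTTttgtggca

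The last set shows contigs of 1 cluster whose probes are alike. CL44Contig1 and CL44Contig2 have the same probe of 36 bases on different spots, and CL6Contig3 and CL6Contig5 share 29 bases.
CL44Contig1: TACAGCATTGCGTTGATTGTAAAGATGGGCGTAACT
CL44Contig2: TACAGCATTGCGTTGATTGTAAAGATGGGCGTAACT
CL6Contig3: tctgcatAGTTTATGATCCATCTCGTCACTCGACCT
CL6Contig5: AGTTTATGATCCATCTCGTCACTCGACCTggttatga

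In all, 22 of the 164 probes shared a run of at least 16 bases with another probe. The probes did not stand apart in base composition: the median GC content was 48.6% for these contigs, for contigs above 200 and for single clones. Of the 164, 125 were 35 bases long. Their start lay further into the contig, at a median base of 469.5, against 385 for contigs above 200 and 257 for single clones.

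Values are normalized log2 intensities, in which 1 unit is a doubling of intensity. The median intensity of the mangrove probes ran from 52.9 to 1730 over the 19 arrays, whose number limits the precision. Sample C of NaCl 6 h and sample C of all 3 sorbitol groups gave the 4 arrays of lowest signal, with 2126 to 3216 probes at 0. The other arrays had 0 to 82 such probes. Counts are also given without these 4 samples. A probe was detected if it exceeded 95% of the 70 negative control spots of its array, and 142 to 154 of the 164 contigs were detected per array, 86.6% to 93.9%. For contigs above 200 the range was 72.5% to 87.2%, and for all mangrove probes 53.2% to 68.7%. Between 3 and 18 of the 164 were at the scanner's ceiling on each array. In all, 26 of the 164 (15.9%) reached it in at least 1 sample, against 35 of the other 11833 probes (0.296%). A difference between ceiling values has no size.

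A contig was tested if it was detected in at least 3 of the 18 samples. This held for 153 of the 164 contigs (93.3%), for 878 of the 976 contigs above 200 (90%) and for 7624 of the 10857 single clones (70.2%). Of the 11 that were not tested, 6 were detected in no sample: CL6Contig4, CL11Contig1, CL11Contig2, CL100Contig1, CL114Contig1 and CL184Contig1. CL20Contig1, CL75Contig1 and CL81Contig1 were detected in 1 sample, and CL29Contig1 and CL158Contig1 in 2. The counts below are over the 153 tested contigs.

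The 164 contigs were bright in every sample. Their median level exceeded that of the contigs above 200 in 18 of 18 samples, by 1.68 to 2.15 on the log2 scale with a median of 2.00. Intensity also depends on the sequence of each probe, so these are medians over many probes and single probes are not set against each other. Of the 164, 105 (64%) ranked in the top 10% of all mangrove probes by mean level, against 200 of the 976 contigs above 200 (20.5%). At the other end, 10 of the 164 (6.1%) lay in the lowest 25%.

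The level was lower at higher cluster numbers, inside the range as well as beyond it. The median level was 12.94 for the 55 contigs numbered 1 to 50, 11.86 for the 39 numbered 51 to 100, 11.55 for the 33 numbered 101 to 150 and 11.34 for the 37 numbered 151 to 200. It continued to 10.49 for the 239 contigs numbered 201 to 500, 9.93 for the 384 from 501 to 1000 and 9.44 for the 353 from 1001 on, and stood at 8.49 for single clones. Across the 164 contigs Spearman's rho between level and cluster number was -0.274, and across all 1140 contigs it was -0.348. These are descriptions across probes, which share the same arrays and are not replicates. Near the limit the values are those of single probes and give no order between contigs. The last contigs inside had mean levels of 9.56 for CL195Contig1, 10.74 for CL196Contig1, 10.63 for CL198Contig1 and 11.85 for CL200Contig1. The first outside had 13.81 for CL203Contig1, 13.26 for CL204Contig1 and 12.71 for CL206Contig1.

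**Figure D1:**
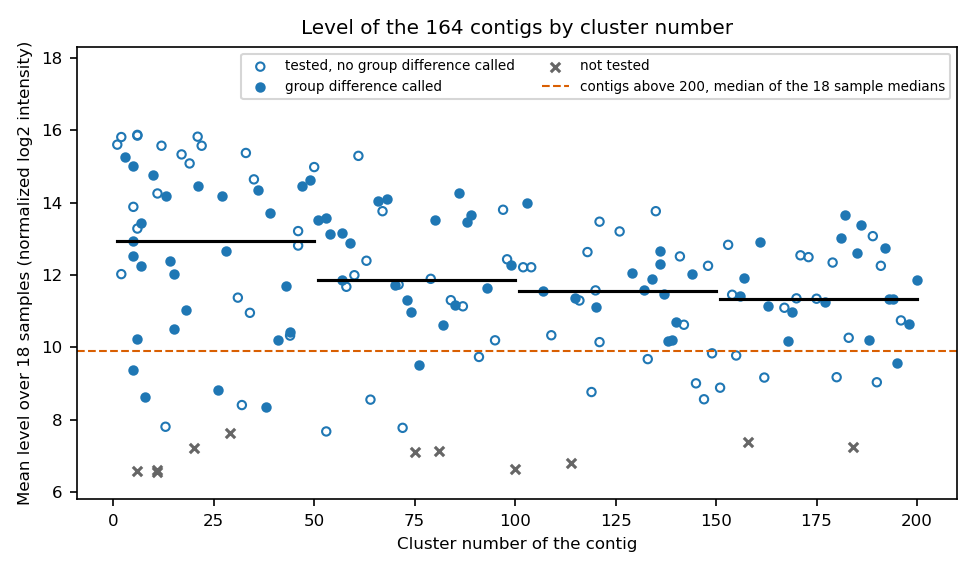
Mean level of each of the 164 contigs over the 18 samples (normalized log2 intensity, vertical axis) against its cluster number (horizontal axis), with black lines for the median of each range of 50 numbers and a dashed line for the contigs above 200. The medians step from 12.94 to 11.34, and the 11 contigs that were not tested lie at the bottom.

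The median level of the 164 contigs was lowest in NaCl 0 h, at 11.43 ± 0.16 (SD, n = 3), and 11.88 ± 0.03 at NaCl 6 h and 11.95 ± 0.04 at NaCl 24 h. In the sorbitol series it was 11.96 ± 0.15 at 0 h, 11.81 ± 0.09 at 6 h and 12.02 ± 0.03 at 24 h. The NaCl 0 h samples had medians of 11.40, 11.29 and 11.60 and lay below all 15 other samples, of which the lowest was sorbitol 6 h A at 11.73. The level of the contigs above 200 was also lowest in NaCl 0 h, at 9.70 ± 0.08, and lay between 9.89 and 9.93 in the other groups. Quantile normalization gives all arrays 1 distribution, so these are shifts relative to all other mangrove probes. In leaf RNA, fewer cells of a type and less RNA per cell cannot be told apart.

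Over the 6 groups, 79 of the 153 contigs (51.6%) were called, meaning an adjusted p under 0.05 by limma's moderated F test with Benjamini-Hochberg adjustment over all 8655 tested probes. Of all tested probes 22.3% were called, and of the contigs above 200 33.4%. Brighter probes were called more often, from 14.4% of all tested probes in the dimmest to 29.8% in the brightest of 4 equal classes of level, so the shares were also read within these classes. The brightest class held 119 of the 153 contigs, of which 66 (55.5%) were called, against 36.1% of the contigs above 200 there. This class is wide, from 10.42 to 15.92, and levels inside it were not matched between these contigs and those above 200. Whether level accounts for the higher share was not tested. In the next class 10 of 19 (52.6%) were called, against 37.8% of the contigs above 200 and 25.1% of all tested probes. In the dimmer classes the numbers were small: 2 of 10 (20%) were called, against 27.9% of the contigs above 200 and 20% of all tested probes, and 1 of 5 (20%), against 23.4% and 14.4%. The median residual SD of the 153 tested contigs was 0.377, against 0.348 for the 878 tested contigs above 200. Without the 4 arrays of lowest signal 71 of the 153 were called.

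**Figure D2:**
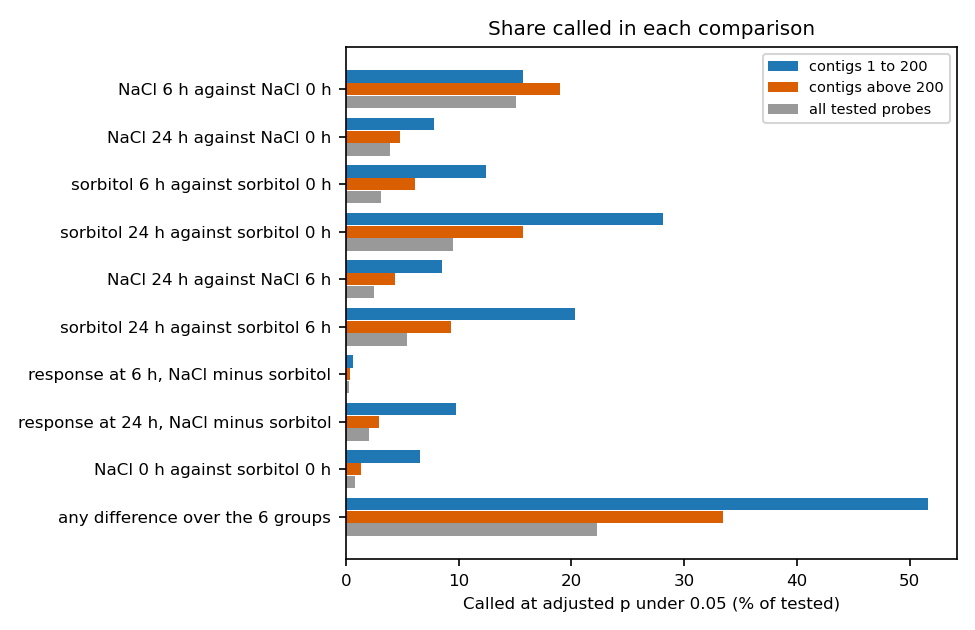
Share of tested probes called at an adjusted p under 0.05 (horizontal axis, %) in the 9 comparisons and the test over all 6 groups, for contigs 1 to 200, contigs above 200 and all tested probes. The share of contigs 1 to 200 is the highest of the 3 in all comparisons but NaCl 6 h, where it is 15.7% against 19% and 15.1%.

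After 6 h of NaCl, 21 contigs rose and 3 fell. This was 24 of the 153 contigs (15.7%), against 15.1% of all tested probes and 19% of the contigs above 200, so the share was near the background. Of the 24 called contigs 87.5% rose, as did 75.4% of the 167 called contigs above 200 and 49.5% of all called probes. As shares of those tested, 13.7% of the 153 rose, against 14.4% of the contigs above 200 and 7.48% of all probes. Falls were 1.96%, against 4.67% and 7.61%. The rises ran from 0.79 to 5.06 on the log2 scale with a median of 1.27. The falls ran from -1.5 to -2.31. The median log2 difference was 0.25 over the 153 contigs and likewise 0.25 over the contigs above 200, against 0.02 over all tested probes. With the sorbitol 0 h samples as the control, 11 contigs (7.19%) were called, 8 of them the same way as against NaCl 0 h, and 2.51% of all tested probes. Of these 11, 7 rose and 4 fell, so the balance of directions changed with the 0 h group used. Without NaCl 0 h B 12 were called, and without the 4 arrays of lowest signal 18. Only 1 contig, which rose, was called in the authors' deposited table. The share was not near the background under median scaling. There 13 contigs (8.5%) were called, against 3.56% of all tested probes and 4.78% of the contigs above 200.

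After 6 h of sorbitol, 9 contigs rose and 10 fell. The 19 called contigs were 12.4% of the 153, against 3.13% of all tested probes (1.76% rose, 1.37% fell) and 6.15% of the contigs above 200. Under median scaling 6 of 9 called contigs rose, and 2 of 2 did in the authors' deposited table. The rises ran from 0.86 to 4.90 and the falls from -0.94 to -2.55. The median over the 153 contigs was -0.11. Without sorbitol 0 h A 12 were called, and 16 when the 4 arrays of lowest signal were left out. With NaCl 0 h as the control 43 (28.1%) were called, among them 16 of the 19 in the same direction, against 8.91% of all tested probes and 15.1% of the contigs above 200. Of these 43, 31 rose and 12 fell, so here too the balance changed with the 0 h group used.

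Of the contigs called at 6 h, 8 rose in both treatments and 2 fell in both, and none was called in opposite directions. These 10 were 41.7% of the contigs called in NaCl, against 11.4% for the contigs above 200 and 9.57% for all tested probes. They were 52.6% of the contigs called in sorbitol, against 35.2% and 46.1%. The treatments do not share their 0 h samples. Among the 24 called in NaCl, 20 (83.3%) had a log2 difference of the same sign in sorbitol, against 73.1% of the called contigs above 200 and 58.3% of all called probes.

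CL177Contig1 had the highest F of all 153 contigs. Its levels were 11.12, 9.96 and 10.01 in NaCl 0 h A, B and C, 15.31, 15.57 and 15.38 at NaCl 6 h, and 9.98, 9.84 and 9.47 at NaCl 24 h. In the sorbitol series they were 9.31, 9.77 and 10.82 at 0 h, 14.82, 14.73 and 15.04 at 6 h, and 7.52, 6.97 and 6.88 at 24 h. All 6 samples taken at 6 h stood above all 12 others, and the sorbitol 24 h samples stood below all others. The rise at 6 h was 5.06 (SE 0.35, adjusted p = 1.17e-08) in NaCl and 4.90 (SE 0.35, adjusted p = 1.06e-08) in sorbitol. The probe was at the scanner's ceiling in 1 NaCl 6 h sample. Between 6 h and 24 h the level fell by 5.66 in NaCl (adjusted p = 1.41e-09), to 9.98 and less, against 9.96 and more at NaCl 0 h. In sorbitol it was not detected at 24 h in any sample, which gives a level at least 102-fold lower than at 6 h (adjusted p = 6.27e-12) and at least 3.42-fold lower than at 0 h (adjusted p = 9.53e-06). For each such bound the dimmer group enters, array by array, with the lowest detected value or with the probe's value where that is higher.

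CL47Contig1, CL120Contig1 and CL68Contig1 also stood highest at 6 h. CL47Contig1 had levels of 13.89, 13.47 and 13.89 in NaCl 0 h, 15.20, 15.84 and 15.20 at 6 h and 13.46, 13.37 and 13.54 at 24 h. Its sorbitol levels were 14.04, 14.13 and 14.21 at 0 h, 15.64, 15.38 and 14.95 at 6 h and 14.57, 14.44 and 14.81 at 24 h. In both series the 6 h samples stood above the 0 h and 24 h samples without overlap. The probe was at the ceiling in 1 sample of each 6 h group. The rise was 1.66 (SE 0.25, adjusted p = 0.000454) in NaCl and 1.20 (SE 0.25, adjusted p = 0.00701) in sorbitol. The later fall was called in NaCl (-1.96, adjusted p = 4.68e-05), and was -0.72 in sorbitol (adjusted p = 0.107).

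CL120Contig1 rose by 1.79 (adjusted p = 0.0011) in NaCl and by 1.75 (adjusted p = 0.0012) in sorbitol at 6 h. Its group means were 10.39, 12.18 and 10.44 over time in NaCl and 10.35, 12.10 and 11.11 in sorbitol. A single clone on the array, Bg04-03_N01, shares 34 of the 35 bases of this probe, and it rose by 1.53 (adjusted p = 0.00203) and 1.61 (adjusted p = 0.00125). The other contig of the cluster, CL120Contig2, was not called over the 6 groups (adjusted p = 0.186). CL68Contig1 rose by 1.25 at 6 h of NaCl (adjusted p = 0.023), and in sorbitol its 6 h difference was 1.08 (adjusted p = 0.114). It fell below its 0 h level by 24 h of sorbitol, by 1.63 (adjusted p = 0.00455).

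CL139Contig1 and CL182Contig1 showed the opposite course, with the lowest values at 6 h. CL139Contig1 had levels of 11.22, 10.51 and 10.28 in NaCl 0 h, 7.75, 8.33 and 9.0 at 6 h and 11.06, 11.34 and 10.95 at 24 h. Its sorbitol levels were 10.96, 11.23 and 11.53 at 0 h, 9.29, 9.32 and 9.23 at 6 h and 10.57, 11.32 and 9.50 at 24 h. The 6 samples of 6 h lay below the 12 others, the closest being sorbitol 24 h C. The fall was -2.31 (SE 0.38, adjusted p = 0.000896) in NaCl, where the probe was detected in 2 of 3 samples at 6 h. In sorbitol it was -1.96 (SE 0.38, adjusted p = 0.00367). The level rose again by 2.76 between 6 h and 24 h of NaCl (adjusted p = 0.000103).

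CL182Contig1 fell by 1.53 in NaCl (adjusted p = 0.00668) and by 2.13 in sorbitol (adjusted p = 0.000507) at 6 h. It was 14.66 ± 0.70 (SD, n = 3) at NaCl 24 h, against 14.67 ± 0.32 at NaCl 0 h, and it was still called lower at sorbitol 24 h (-1.41, adjusted p = 0.00988). CL57Contig1 fell by 2.55 at 6 h of sorbitol (SE 0.64, adjusted p = 0.0291), where sample A stood at 9.69 and B and C at 11.80 and 12.15. Leaving out any 1 of sorbitol 0 h A, B, C or sorbitol 6 h A ended that call. In NaCl its 6 h difference was -1.53 (adjusted p = 0.106).

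After 24 h of NaCl, 11 contigs rose and 1 fell. The 12 called contigs were 7.84% of the 153, against 3.92% of all tested probes (1.64% rose, 2.28% fell) and 4.78% of the contigs above 200. The rises ran from 1.01 to 2.77 with a median of 1.28, and under median scaling 2 of 3 called contigs rose. Without NaCl 0 h B 5 contigs were called, and without NaCl 24 h B 6. When the 4 arrays of lowest signal were left out, 13 were called. With sorbitol 0 h as the control 8 (5.23%) were called, 4 of them the same way as against NaCl 0 h, and 0.982% of all tested probes. Of these 8, 5 rose and 3 fell.

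After 24 h of sorbitol, 22 contigs rose and 21 fell, the highest count of the comparisons with 0 h. The 43 called contigs were 28.1% of the 153, against 9.5% of all tested probes (4.91% rose, 4.59% fell) and 15.7% of the contigs above 200. The rises ran from 0.80 to 4.24 and the falls from -0.89 to -4.24, each with a median size of 1.55. Without the 4 arrays of lowest signal 24 contigs were called, 23 of them called the same way with all arrays. With NaCl 0 h as the control 75 (49%) were called, among them 41 of the 43 in the same direction, against 24.4% of all tested probes and 33.9% of the contigs above 200. Of these 75, 49 rose and 26 fell.

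At 24 h, 6 contigs rose in both treatments and none fell in both. They were 50% of the 12 contigs called in NaCl, against 38.1% for the contigs above 200 and 21.2% for all tested probes. They were 14% of the 43 called in sorbitol, against 11.6% and 8.76%. All 12 contigs called in NaCl had a log2 difference of the same sign in sorbitol, as had 95.2% of the called contigs above 200 and 71.7% of all called probes. Of the 43 called in sorbitol 31 (72.1%) had the same sign in NaCl, near the 76.1% and 74.7% of those classes. Of the 153 contigs, 104 were called in neither treatment at 24 h, 6 in NaCl only and 37 in sorbitol only. That a contig was called in 1 treatment only does not show a difference between the treatments, which was tested separately below.

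**Figure D3:**
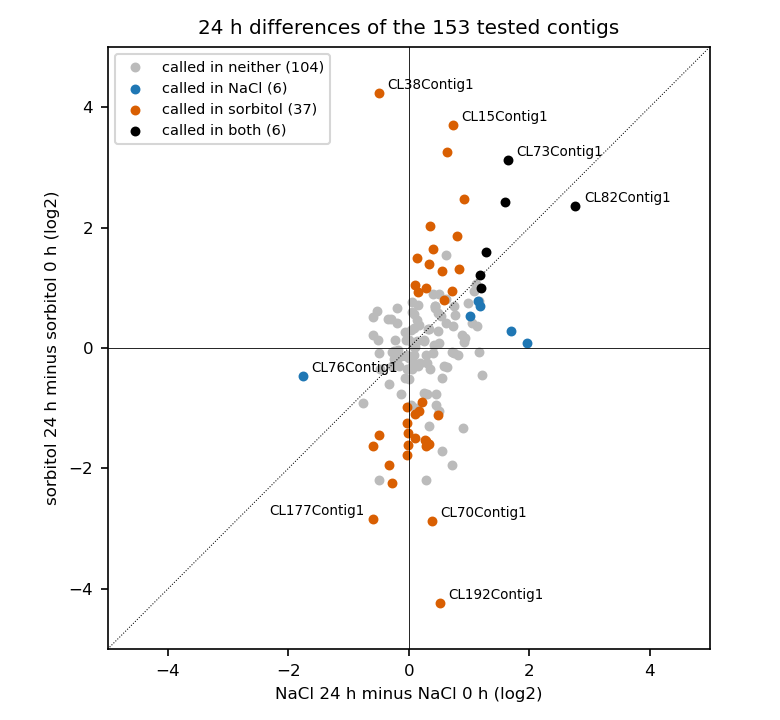
Log2 difference at 24 h of NaCl from NaCl 0 h (horizontal axis) against that at 24 h of sorbitol from sorbitol 0 h (vertical axis) for the 153 tested contigs, 1 point each, with a dotted line where both are equal. The called points spread along the sorbitol axis, from CL38Contig1 at 4.24 to CL192Contig1 at -4.24, while the 12 called in NaCl lie between -1.76 and 2.77.

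CL82Contig1, CL99Contig1 and CL27Contig1 were the 3 contigs called higher in all 4 comparisons with 0 h. CL27Contig1, named after its values had been seen, rose by 1.05 to 1.59 in them (adjusted p = 0.000493 to 0.0203). CL82Contig1 had levels of 8.70, 8.86 and 8.87 in NaCl 0 h, 10.39, 10.49 and 10.57 at 6 h and 11.80, 11.09 and 11.85 at 24 h. In sorbitol they were 9.78, 9.78 and 9.17 at 0 h, 11.23, 11.18 and 11.39 at 6 h and 11.61, 12.04 and 12.17 at 24 h. No sample of a later time overlapped the earlier one in either series. The rise at 24 h was 2.77 (SE 0.26, adjusted p = 5.27e-06) in NaCl and 2.36 (SE 0.26, adjusted p = 2.43e-06) in sorbitol. It also rose between 6 h and 24 h of NaCl, by 1.10 (adjusted p = 0.0205), and by 0.67 in sorbitol, where the test was not passed (adjusted p = 0.149).

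CL99Contig1 had levels of 10.68, 11.16 and 11.35 in NaCl 0 h, 12.63, 12.94 and 12.40 at 6 h and 12.64, 13.02 and 12.32 at 24 h. In the sorbitol series the levels were 10.74, 10.61 and 11.17 at 0 h, 13.24, 12.75 and 13.61 at 6 h and 13.05, 13.36 and 13.39 at 24 h. The 6 h and 24 h samples overlapped each other and stood above all 0 h samples. The difference at 24 h was 1.60 (SE 0.28, adjusted p = 0.00446) in NaCl and 2.43 (SE 0.28, adjusted p = 5.03e-06) in sorbitol. The clone Bg04-13_F23 shares 34 of the 36 bases of this probe. It differed by 0.93 in NaCl (adjusted p = 0.0868) and rose by 2.56 in sorbitol (adjusted p = 7.59e-06) at 24 h.

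CL73Contig1 stood higher at each later time in both series, and furthest at sorbitol 24 h. Its levels were 10.01, 9.64 and 10.29 in NaCl 0 h, 10.97, 10.39 and 10.78 at 6 h and 11.88, 11.29 and 11.74 at 24 h. In sorbitol they were 10.37, 10.56 and 10.63 at 0 h, 11.68, 11.52 and 10.92 at 6 h and 13.88, 13.33 and 13.70 at 24 h. The 3 sorbitol 24 h samples lay above the 15 others. The 6 h differences of 0.73 and 0.86 were not called (adjusted p = 0.0703 and 0.107), and the rise at 24 h was 1.65 (SE 0.27, adjusted p = 0.00241) in NaCl and 3.12 (SE 0.27, adjusted p = 1.78e-07) in sorbitol. CL85Contig1 rose in sorbitol by 1.84 at 6 h (adjusted p = 0.000211) and by 2.47 at 24 h (adjusted p = 2.32e-06). In NaCl its differences were 0.76 and 0.91 (adjusted p = 0.0576 and 0.0563).

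CL43Contig1 rose late. It stood at 11.48 ± 0.24 (SD, n = 3), 11.31 ± 0.16 and 12.67 ± 0.13 over 0 h, 6 h and 24 h of NaCl, and rose by 1.36 between 6 h and 24 h (adjusted p = 0.00137). In sorbitol it stood at 11.52 ± 0.14, 10.96 ± 0.19 and 12.22 ± 0.35, and rose by 1.26 between 6 h and 24 h (adjusted p = 0.00184). Against sorbitol 0 h it was not called at 24 h. The call between 6 h and 24 h of NaCl was lost under median scaling and in the authors' deposited table. CL76Contig1 was the only contig called lower at 24 h of NaCl. Its levels were 10.50, 10.59 and 10.99 in NaCl 0 h, 9.10, 9.21 and 9.28 at 6 h and 8.91, 8.89 and 9.01 at 24 h. Sorbitol samples stood at 9.80, 9.45 and 10.36 at 0 h, 9.30, 9.04 and 8.59 at 6 h and 9.49, 9.15 and 9.56 at 24 h. The NaCl 0 h samples lay above all 15 others, and the fall in NaCl was -1.5 (adjusted p = 0.00161) at 6 h and -1.76 (adjusted p = 0.000919) at 24 h. With sorbitol 0 h as the control neither fall was called.

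CL38Contig1 had levels of 6.75, 7.23 and 7.47 in NaCl 0 h, 6.52, 7.05 and 8.29 at 6 h and 6.92, 6.22 and 6.82 at 24 h. In sorbitol they were 7.22, 7.83 and 8.40 at 0 h, 9.72, 8.79 and 8.67 at 6 h and 11.09, 12.22 and 12.86 at 24 h. It was detected in 1 of the 9 NaCl-series samples and in no sorbitol 0 h sample, and in all sorbitol samples at 6 h and 24 h. The detection limits differed between these arrays. In sorbitol 6 h C the probe read 8.67 and the limit was a raw intensity of 2.51. In sorbitol 0 h C it read 8.40, the limit was 53.4, and it was not detected. CL38Contig1 was not called at sorbitol 6 h. Its level at sorbitol 24 h was at least 13.2-fold higher than at sorbitol 0 h (adjusted p = 2.21e-06), and 2.99 higher on the log2 scale than at sorbitol 6 h (adjusted p = 0.000216).

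CL15Contig1 had levels of 9.16, 9.30 and 8.31 in NaCl 0 h, 9.01, 9.93 and 10.53 at 6 h and 9.83, 9.21 and 9.94 at 24 h. Sorbitol-series levels were 9.57, 11.37 and 10.20 at 0 h, 11.07, 10.07 and 9.13 at 6 h and 13.00, 14.65 and 14.59 at 24 h. The 3 sorbitol 24 h samples stood above the 15 others, which overlapped among themselves. The rise at sorbitol 24 h was 3.70 (SE 0.53, adjusted p = 6.51e-05), and at NaCl 24 h the difference was 0.73 (adjusted p = 0.454). CL15Contig2, the other contig of the cluster, rose by 2.03 at sorbitol 24 h (SE 0.35, adjusted p = 0.000661), with a difference of 0.35 at NaCl 24 h (adjusted p = 0.625). In the authors' deposited table the rise of CL15Contig2 had an adjusted p of 0.0945. CL41Contig1 rose by 3.25 at sorbitol 24 h (adjusted p = 4.03e-05), from 9.70 ± 0.64 to 12.94 ± 0.29 (SD, n = 3). In its other 5 groups the means lay between 9.16 and 9.84.

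Among the falls, CL192Contig1 had levels of 13.42, 12.95 and 13.63 in NaCl 0 h, 13.81, 13.23 and 13.07 at 6 h and 13.42, 14.31 and 13.81 at 24 h. In sorbitol they were 13.94, 14.02 and 14.11 at 0 h, 12.71, 11.66 and 12.14 at 6 h and 11.40, 8.56 and 9.39 at 24 h. The sorbitol 24 h samples lay below all others and were the most spread, and the 6 h samples came next. The fall was -1.85 (SE 0.48, adjusted p = 0.0325) at 6 h and -4.24 (SE 0.48, adjusted p = 3.73e-06) at 24 h. In NaCl the differences were 0.03 and 0.52, and neither was called (adjusted p = 0.97 and 0.582).

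CL70Contig1 fell by 2.87 at sorbitol 24 h (SE 0.57, adjusted p = 0.0022), with 11.34, 9.88 and 7.52 in samples A, B and C, of which C is an array of lowest signal. CL54Contig1 fell by 2.24 (SE 0.29, adjusted p = 2.04e-05), with 11.99, 11 and 10.99 in those samples against 13.67, 13.65 and 13.39 at sorbitol 0 h. CL140Contig1 fell by 1.97 at 6 h of sorbitol (adjusted p = 8.13e-05) and by 1.5 at 24 h (adjusted p = 0.000516). Its 9 NaCl-series samples lay between 10.57 and 11.20.

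**Figure D4:**
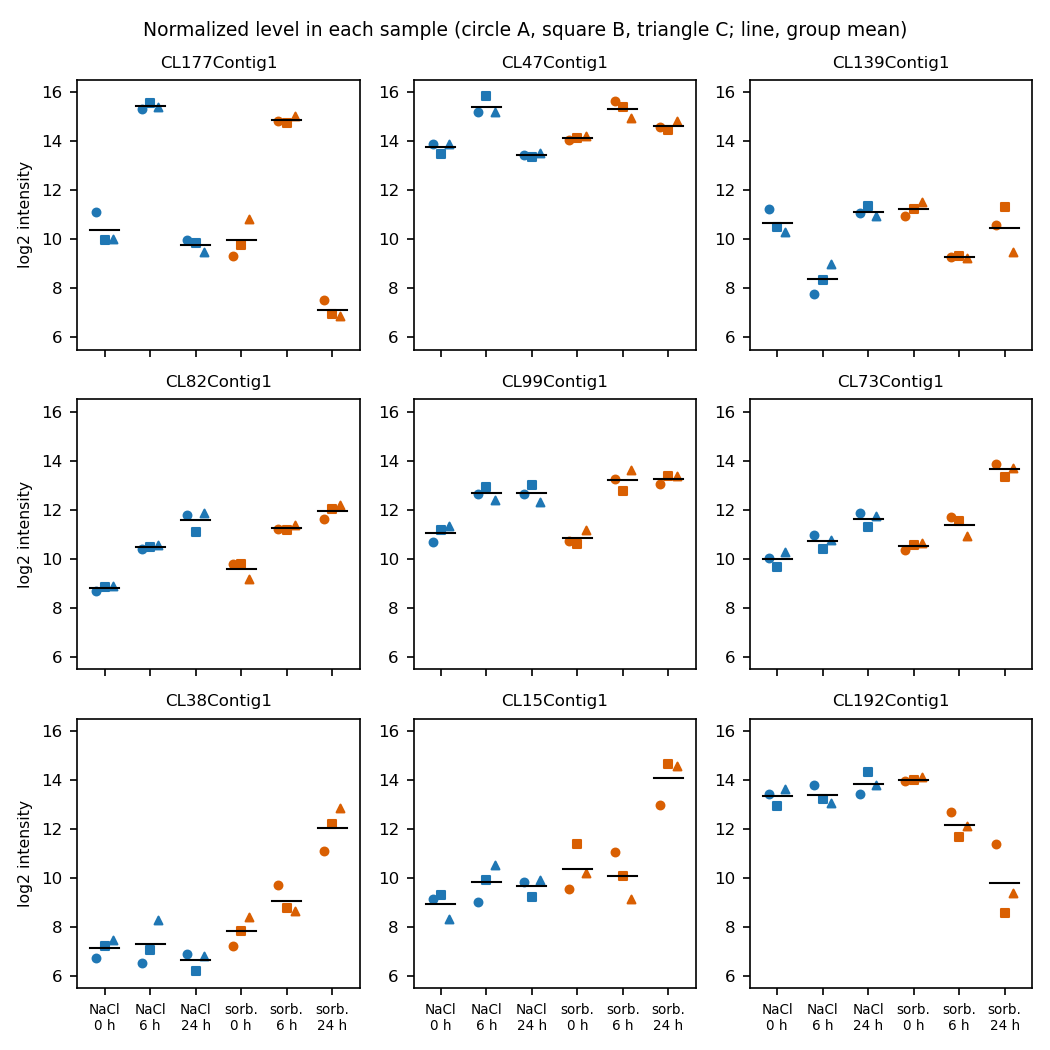
Normalized log2 intensity (vertical axes) of 9 contigs in each of the 18 samples by group (horizontal axes; blue for the NaCl series, orange for sorbitol; circle A, square B, triangle C; line, group mean of 3). CL177Contig1 and CL47Contig1 stand highest and CL139Contig1 lowest at 6 h, CL82Contig1, CL99Contig1 and CL73Contig1 stand higher after both treatments, and CL38Contig1, CL15Contig1 and CL192Contig1 depart from their other groups at sorbitol 24 h.

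Between 6 h and 24 h, 8 contigs rose and 5 fell in NaCl, 13 of 153 (8.5%), against 2.53% of all tested probes (1.54% rose, 0.994% fell) and 4.33% of the contigs above 200. Under median scaling 1 of 6 called contigs rose, and 0 of 2 did in the authors' deposited table. Without NaCl 6 h B 7 were called, without NaCl 24 h B 8, and without the 4 arrays of lowest signal 13. In sorbitol 19 rose and 12 fell, 31 of 153 (20.3%), against 5.4% of all tested probes (3.19% rose, 2.21% fell) and 9.34% of the contigs above 200, and 22 were called without the 4 arrays of lowest signal. These comparisons share samples with the comparisons against 0 h, so their calls are not independent of the ones above.

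The difference between the treatments was tested as a difference of responses: the change in NaCl, less the change in sorbitol, each counted from the 0 h samples of its own series. At 6 h it was called for 1 contig of 153 (0.654%), CL140Contig1, against 0.289% of all tested probes (0.0578% positive, 0.231% negative) and 0.342% of the contigs above 200. Its difference was 1.75 (SE 0.36, adjusted p = 0.0405). Leaving out any 1 sample of its 4 groups other than NaCl 0 h C ended its call, and so did leaving out any NaCl 24 h sample, which enters through the shared spread, or the 4 arrays of lowest signal.

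At 24 h the difference was called for 15 contigs (9.8%), against 2.03% of all tested probes (0.751% positive, 1.28% negative) and 2.96% of the contigs above 200. In 10 the value was positive, meaning a lower response in sorbitol than in NaCl, and in 5 negative. CL192Contig1 had the highest value, 4.75 (SE 0.67, adjusted p = 0.00046), and CL38Contig1 the lowest, -4.73 (SE 0.64, adjusted p = 0.000332). CL38Contig1 was not detected in either NaCl group of that comparison or in sorbitol 0 h, so its value is no measured size. CL70Contig1 followed with 3.25 (adjusted p = 0.0364) and CL15Contig1 with -2.97 (adjusted p = 0.0393). The count was 4 without the 4 arrays of lowest signal, where CL70Contig1 and CL15Contig1 lost their calls, and 2 without NaCl 0 h B or without sorbitol 24 h B. It was 5 without NaCl 24 h A, NaCl 24 h B or sorbitol 0 h A, 8 or 7 without sorbitol 0 h B or C, and 9 without sorbitol 24 h C. Of 2 contigs called in the authors' deposited table, 1 had a positive value.

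Before treatment, 10 contigs were lower in NaCl 0 h than in sorbitol 0 h and none was higher. They were 6.54% of the 153, against 0.809% of all tested probes (0.3% higher, 0.508% lower) and 1.37% of the contigs above 200. Both groups were untreated, so the series is confounded with whatever else differed between its plants, sampling and arrays, and these cannot be told apart. Without NaCl 0 h A, or without NaCl 0 h B, the count was 3, and without the 4 arrays of lowest signal 9. Without sorbitol 0 h A, B or C it was 6, 4 or 5.

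In CL14Contig1 the difference persisted at all times. Its levels were 8.19, 8.60 and 11.52 in NaCl 0 h, 9.83, 11.87 and 10.31 at 6 h and 8.87, 9.42 and 12.75 at 24 h. The levels in sorbitol were 15.04, 14.46 and 14.23 at 0 h, 14.46, 15.31 and 14.16 at 6 h and 14.52, 14.78 and 14.73 at 24 h. The highest of the 9 NaCl-series samples, NaCl 24 h C, was below the lowest sorbitol-series sample. The NaCl-series samples were also far more spread, with sample C highest at 0 h and at 24 h. The difference of NaCl 0 h from sorbitol 0 h was -5.14 (SE 0.81, adjusted p = 0.00245), and neither treatment changed the contig past the threshold, with adjusted p from 0.304 to 0.994 in the 4 comparisons with 0 h.

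CL13Contig2 and CL7Contig1 had the same arrangement. CL13Contig2 ran from 11.21 to 14.31 over the 9 NaCl-series samples (median 12.06) and from 15.17 to 15.93 over the 9 sorbitol-series samples (median 15.79). Its 0 h difference was -3.32 (SE 0.67, adjusted p = 0.0161), and it was at the scanner's ceiling in 2 of the sorbitol 0 h samples. CL7Contig1 ran from 8.58 to 12.67 (median 10.42) and from 13.59 to 14.44 (median 13.84), with a 0 h difference of -3.54 (SE 0.77, adjusted p = 0.0283). In both, as in CL14Contig1, sample C was the highest in NaCl 0 h and in NaCl 24 h, and sample B in NaCl 6 h.

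CL8Contig1 was dimmer, from 6.99 to 8.16 in the NaCl series and from 8.61 to 11.14 in the sorbitol series. It was detected in 1 of 9 NaCl-series samples and in all 9 of the sorbitol series, and it also rose at sorbitol 24 h, by 1.65 (SE 0.32, adjusted p = 0.00161). These 4 contigs were the ones of the 153 (2.61%) whose NaCl-series and sorbitol-series samples did not overlap, all with the sorbitol series higher. Of the contigs above 200 this held for 5 of 878 (0.569%) and of all tested probes for 38 of 8655 (0.439%). Apart from CL8Contig1 and the contigs of cluster 5, the contigs named for a difference before treatment were chosen after their values had been seen.

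**Figure D5:**
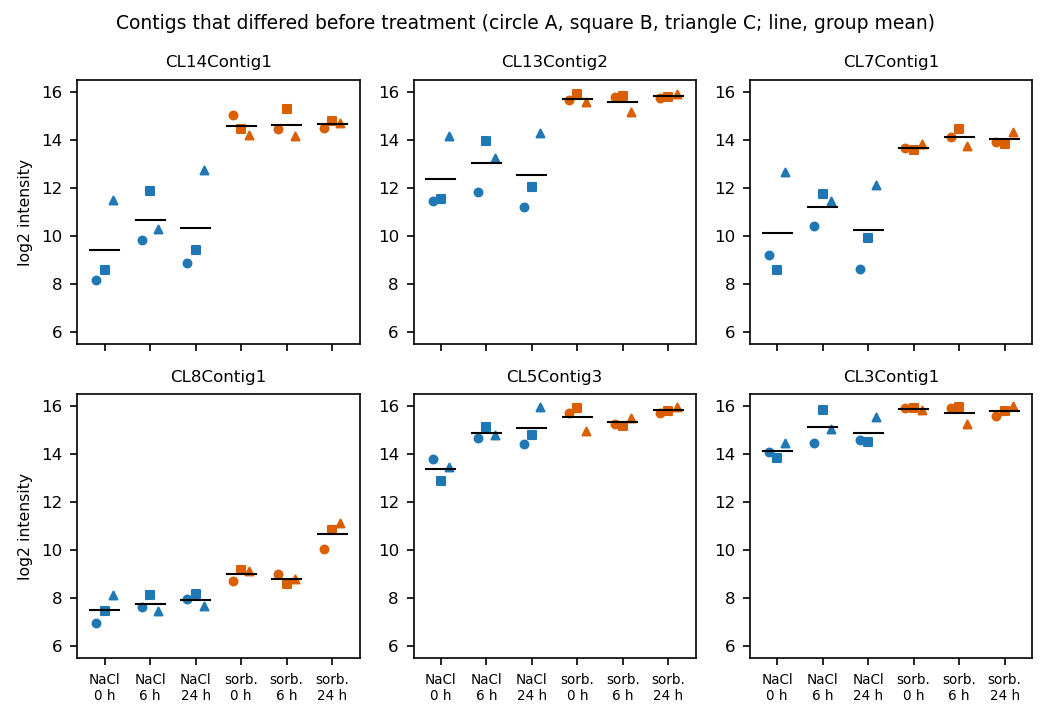
Normalized log2 intensity (vertical axes) in each of the 18 samples by group (horizontal axes; blue for the NaCl series, orange for sorbitol; circle A, square B, triangle C; line, group mean of 3) for 6 of the 10 contigs that were lower in NaCl 0 h than in sorbitol 0 h. CL14Contig1, CL13Contig2, CL7Contig1 and CL8Contig1 stay lower in all 9 NaCl-series samples, whereas in CL5Contig3 and CL3Contig1 the later NaCl samples reach into the sorbitol range.

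The other contigs that differed before treatment were CL10Contig1 (-1.86, adjusted p = 0.0254), CL169Contig1 (-2.12, adjusted p = 0.0174), CL3Contig1 (-1.76, adjusted p = 0.0107) and CL5Contig2, CL5Contig3 and CL5Contig5. CL3Contig1 had levels of 14.08, 13.82 and 14.45 in NaCl 0 h, against 15.91, 15.90 and 15.82 in sorbitol 0 h, where it was at the ceiling in 2 samples. It rose by 1.00 at NaCl 6 h (adjusted p = 0.046), with 1 sample at the ceiling there. In sorbitol it was at the ceiling in 2 samples at 6 h and 3 at 24 h, so a change from 0 h could not be measured. CL10Contig1 was at the ceiling in 1 sorbitol 0 h sample.

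Cluster 5, with 5 contigs, shared 1 arrangement. All 5 had their lowest group mean in NaCl 0 h, at 12.81 for CL5Contig1, 7.72 for CL5Contig2, 13.38 for CL5Contig3, 11.46 for CL5Contig4 and 11.23 for CL5Contig5. This is not particular to the cluster. The median levels of the 164 contigs (11.43) and of the contigs above 200 (9.70) were lowest in that group too. How many other contigs had their lowest mean there was not counted. The range of group means ran from 1.80 to 3.00 over the 5, and 4 of them were called over the 6 groups, CL5Contig1 not (adjusted p = 0.177). No probe of the cluster shared 16 bases with another.

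CL5Contig3 had levels of 13.81, 12.87 and 13.46 in NaCl 0 h, 14.65, 15.14 and 14.81 at 6 h and 14.44, 14.81 and 15.98 at 24 h. In sorbitol they were 15.70, 15.90 and 14.98 at 0 h, 15.27, 15.17 and 15.51 at 6 h and 15.70, 15.80 and 15.95 at 24 h. The NaCl 0 h samples lay below the 15 others. It rose by 1.49 at NaCl 6 h (SE 0.34, adjusted p = 0.00873) and by 1.70 at NaCl 24 h (SE 0.34, adjusted p = 0.012), and was not called in sorbitol. The probe was at the ceiling in 2 samples of sorbitol 0 h, 1 of sorbitol 6 h, 2 of sorbitol 24 h and 1 of each later NaCl group, so its differences within sorbitol and between the series have no measured size. With sorbitol 0 h as the control it was not called at NaCl 24 h (adjusted p = 0.782).

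CL5Contig2 was not detected in any NaCl 0 h sample. Against that group it was at least 2.05-fold higher at NaCl 6 h (adjusted p = 0.00596) and at least 2.57-fold higher at NaCl 24 h (adjusted p = 0.00578), and sorbitol 0 h was at least 2.44-fold higher than NaCl 0 h (adjusted p = 0.0105). CL5Contig5 rose by 1.61 at NaCl 6 h (SE 0.34, adjusted p = 0.00551), and its difference at NaCl 24 h was 1.09 (adjusted p = 0.0752). CL5Contig1 and CL5Contig4 had differences of 1.33 and 0.72 at NaCl 6 h and passed no test against 0 h. The NaCl 0 h mean of each of the 5 also lay below the sorbitol 0 h mean under median scaling and in the authors' deposited table. In CL5Contig2, CL5Contig3 and CL5Contig5 that difference was called under median scaling as well, and in none of the 5 in the authors' deposited table. Under median scaling the 3 rises at NaCl 6 h passed the threshold, and those of CL5Contig2 and CL5Contig3 at NaCl 24 h did not (adjusted p = 0.0501 and 0.193).

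Cluster 6 also had 5 contigs, of which 3 were at the ceiling or below detection. CL6Contig3 and CL6Contig5, whose probes share 29 bases, were at the ceiling in 17 of 18 samples, and the CL6Contig5 spot of NaCl 0 h A was marked as excluded in the files and left out of the fit. CL6Contig4 was detected in none. CL6Contig2 ran between group means of 12.88 and 13.80 and was not called (adjusted p = 0.428). CL6Contig1 fell by 1.12 at sorbitol 24 h (SE 0.32, adjusted p = 0.0319), with 9.28, 8.93 and 9.69 against 10.15, 10.72 and 10.39 at sorbitol 0 h. Of the 3 contigs of cluster 11, CL11Contig1 and CL11Contig2 were detected in no sample and CL11Contig3 was not called over the 6 groups (adjusted p = 0.0709).

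Over the 14 clusters with at least 2 tested contigs, all tested contigs were called over the 6 groups in 4, some in 7 and none in 3. The clusters in which all were called were 7, 15, 57 and 136. In clusters 2, 46 and 121 none was. Of all 153 contigs 51.6% were called, so clusters with all or with no contigs called would occur among unrelated contigs too. These counts were not compared with contigs taken from different clusters, and agreement within clusters was not tested.

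The identical probes of CL44Contig1 and CL44Contig2 show the spread between spots of 1 array. Their levels differed by a median of 0.22 over the 18 samples and by less than 1 in 16 of them. The largest gap, 1.75, was in sorbitol 24 h C, where they read 11.01 and 9.26. At NaCl 6 h they read 9.57, 9.85 and 10.15 in CL44Contig1 and 7.94, 9.30 and 10.23 in CL44Contig2. The rise between 6 h and 24 h of NaCl was accordingly 1.36 (SE 0.35, adjusted p = 0.041) by one spot and 2.35 (SE 0.58, adjusted p = 0.0286) by the other. Over the 6 groups the first was called (adjusted p = 0.0131) and the second was not (adjusted p = 0.0692).

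Other probes with a near-identical partner gave median gaps from 0.09 (CL121Contig1 and the clone Bg04-20_A09, all 35 bases shared) to 0.54 (CL7Contig2 and the clone Bg03-03_I07, 36 bases shared). The largest single gap was 3.30, in sorbitol 24 h C, between CL84Contig1 and the clone Bg04-28_D12. CL7Contig2 and its partner both rose by 1.85 at NaCl 6 h (adjusted p = 0.034 and 0.0306), while at sorbitol 24 h their log2 differences were 1.07 and 0.26. Those of CL84Contig1 and its partner were 0.66 and -0.44 there. The clone Bg04-06_I02 fell by 0.98 at NaCl 24 h (adjusted p = 0.0355), where CL116Contig1, which shares 34 of its bases, was at -0.47. CL193Contig1, which rose by 1.31 at sorbitol 24 h, has the same 35 bases as the clone Bg05-12_N07, which rose by 1.10 (adjusted p = 0.0131). CL103Contig1, whose log2 difference at sorbitol 24 h was -1.10 and called, shares 33 bases with the clone Bg05-10_J06, at -0.95 (adjusted p = 0.0393).

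The contigs with the smallest range of group means were near the ceiling. CL6Contig3, CL2Contig2 and CL21Contig1 ranged by 0.24, 0.26 and 0.26 between their lowest and highest group means, with mean levels of 15.87, 15.81 and 15.82, so their changes could not be measured. The dimmest tested contigs were CL53Contig2, CL72Contig1 and CL13Contig1, with mean levels of 7.67, 7.77 and 7.80. They were detected in few samples and were not called (adjusted p = 0.449, 0.497 and 0.307). Of the 153 contigs, 88 were called in none of the 4 comparisons with 0 h. In 71 contigs there was no call in these comparisons or over the 6 groups, so some of the 88 were called over the groups. Another 15 were called only as lower at sorbitol 24 h, 12 only as higher there and 7 only as higher at NaCl 6 h. These patterns were not counted for other probes, so no background share is given.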

How the data were processed

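Leaf total RNA was amplified to Cy5-labelled cRNA and hybridised to 1-colour arrays, 19 in all for 18 samples, per the labels' protocols. Per the file headers, the deposited scanner files hold, for each of 12544 spots, a foreground mean intensity and a foreground median intensity, on a linear scale up to 65535. The authors' deposited table of intensity values, whose columns lie on more than 1 scale, was used as an alternative only. The members, the comparisons and the rule for naming contigs were chosen with earlier results of these data known.

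Foreground means were background-corrected (normexp, offset 50), set to log2 and quantile-normalized over the 11997 mangrove probes. On the 4 arrays of lowest signal, foreground plus 50 was used. Spots that the files mark as excluded, 0 to 11 per array, were left out, and the repeat array of NaCl 0 h C was averaged with the first. A spot was taken as saturated if its foreground median was 65535. The 8655 probes above the 95th percentile of 70 negative controls in at least 3 of 18 samples were fitted in limma (lmFit, eBayes, 6 group means, 12 residual degrees of freedom). P-values were adjusted by Benjamini-Hochberg within each of 9 comparisons over all tested probes, with a threshold of 0.05. The model was tested on simulated data. The F test asks whether any group differs.

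Contigs were named if they were among the 4 highest or 4 lowest called, non-overlapping differences of a comparison over time (2 and 2 for differences of responses), the 10 of highest F, the 3 brightest, the 3 dimmest or the 3 of smallest range, or if they belonged to a cluster of at least 3 contigs. This gave 41 contigs, and others are marked in the text.

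The aligner, assembler and scanner software are not given in the sources used here. Other settings were foreground plus 50 without normexp, median scaling, the authors' table, no filter, eBayes with a trend and robust settings, a block for the replicate letter, detection in 18 of 18 samples, other 0 h controls, leaving out each sample and leaving out the 4 arrays of lowest signal. For the level difference the last was added after the data had been seen. Analyses used R 4.3.3 and limma 3.58.1, and figures Python 3.11.15 and matplotlib 3.10.9.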

Additional observations from a re-analysis of the deposited data

Results flagged for a closer look

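The response to NaCl, taken as the change from NaCl 0 h, differed from the response to sorbitol, taken as the change from sorbitol 0 h, by the interaction test in limma for these contigs. Both 0 h groups enter each value, and their difference before treatment was called in 10 contigs, none of which is among those below. A contig that was not called at 0 h can still differ there, and that gap enters its value. For CL15Contig1 the difference of NaCl 0 h from sorbitol 0 h was -1.45 (adjusted p = 0.188).

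At 6 h CL140Contig1 had a difference of 1.75 (adjusted p = 0.0405). It fell in all 3 sorbitol samples, to between 9.50 and 9.80 from 11.40 to 11.78 at 0 h, while NaCl 6 h lay between 10.57 and 10.88. The NaCl 0 h samples also lay below all sorbitol 0 h samples, so the gap between the untreated groups enters this difference. At 24 h its difference was 1.61 (adjusted p = 0.0221).

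Of the other contigs at 24 h, 9 had a lower response in sorbitol. The difference was 4.75 for CL192Contig1 (adjusted p = 0.00046), 3.25 for CL70Contig1 (adjusted p = 0.0364), 2.25 for CL177Contig1 (adjusted p = 0.0181) and 1.98 for CL54Contig1 (adjusted p = 0.013). It was 1.93 for CL59Contig1 (adjusted p = 0.0316), 1.91 for CL49Contig1 (adjusted p = 0.0221), 1.83 for CL86Contig1 (adjusted p = 0.0337), 1.62 for CL134Contig1 (adjusted p = 0.0444) and 1.59 for CL186Contig1 (adjusted p = 0.0445). In each of the 9 the change in sorbitol was called lower and the change in NaCl was not called.

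CL177Contig1 was not detected in any sorbitol 24 h sample, so its value is no measured size. CL49Contig1 was at the scanner's ceiling in 2 of the NaCl 24 h samples and in 1 sorbitol 0 h sample. In CL70Contig1 the sorbitol 24 h samples read 11.34, 9.88 and 7.52, of which sample C is an array of lowest signal, and the call was lost without the 4 such arrays. Most calls at 24 h shared this limit: 3 of the 15 contigs were called the same way without these arrays. CL15Contig1, listed below, lost its call there and in 13 of 26 other settings in all, and CL70Contig1 in 12 of 25.

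In 5 contigs the response was higher in sorbitol at 24 h. The difference was -4.73 for CL38Contig1 (adjusted p = 0.000332; not detected in NaCl 0 h, NaCl 24 h or sorbitol 0 h), -2.97 for CL15Contig1 (adjusted p = 0.0393), -2.62 for CL41Contig1 (adjusted p = 0.0316), -1.56 for CL85Contig1 (adjusted p = 0.0316) and -1.47 for CL73Contig1 (adjusted p = 0.0493). CL73Contig1 rose in both treatments and further in sorbitol. In the other 4 the change at NaCl 24 h was not called.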

How the results depend on the processing

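The level difference between these contigs and the contigs above 200 lay between 1.92 and 2 under all settings run for it, and between 1.99 and 2 when each sample was left out. The counts of called contigs depended more on the settings.

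Median scaling called 13 contigs for NaCl 6 h, 3 for NaCl 24 h, 9 for sorbitol 6 h, 28 for sorbitol 24 h, 6 for NaCl 24 h against 6 h, 18 for sorbitol 24 h against 6 h, 0 for the difference of responses at 6 h and 4 for that at 24 h. The authors' deposited table gave 1, 1, 2, 15, 2, 10, 0 and 2 in the same order, 1 for the 0 h groups and 32 over the 6 groups. It moved the median of all tested probes at sorbitol 24 h by -0.46, and median scaling moved that of the 0 h comparison by -0.11. The 0 h samples of the other series as the control gave 11 contigs for NaCl 6 h, 43 for sorbitol 6 h and 75 for sorbitol 24 h. Both 0 h groups pooled gave 14 for NaCl 6 h, 7 for NaCl 24 h, 34 for sorbitol 6 h and 75 for sorbitol 24 h. These were 9.15%, 4.58%, 22.2% and 49% of the 153 contigs, against 7.89%, 1.4%, 6.56% and 21.6% of all tested probes. Without the 4 arrays of lowest signal there were 24 for sorbitol 24 h, 0 for the difference of responses at 6 h and 4 at 24 h. The shares of all tested probes were then 3.92%, 0.196% and 1.07%, against 15.7%, 0% and 2.61% of the 153 contigs. The difference of responses at 6 h was called for 0 contigs with no filter, 5 with detection in all 18 samples and 2 with trended eBayes. The last 2 settings called 3.88% and 1.31% of the contigs, against 3.02% and 0.994% of all tested probes. In the main fit 17 of the 153 contigs had an unadjusted p under 0.05 in limma for it. This is a lower share than the 1610 of 8655 tested probes and the 179 of 878 contigs above 200. The causes of these shifts were not tested.

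Samples of 1 letter did not deviate together in all pairs: the correlation of their deviations exceeded 0.1 in 26 of 45 pairs (-0.302 to 0.477). All 3 letters exceeded 0.1 between sorbitol 0 h and sorbitol 6 h (0.477, 0.209 and 0.37) and between NaCl 0 h and sorbitol 24 h (0.233, 0.106 and 0.115), and in no other pair of groups. All 4 arrays of lowest signal carry the letter C. The labels tie no letter to a shared plant or batch, so the fit over the 6 groups has no block. With the letter as a replicate block 29, 15, 21, 52, 14, 32, 3 and 16 contigs were called in the order above, 11 for the 0 h groups and 85 over the 6 groups. With that block 19% of the 153 were called at NaCl 6 h, against 21% of all tested probes. At sorbitol 24 h it was 34% against 12.5%, and over the 6 groups 55.6% against 29.4%.

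Leaving out each sample in turn gave 12 to 31 contigs for NaCl 6 h, 5 to 15 for NaCl 24 h, 12 to 22 for sorbitol 6 h, 33 to 46 for sorbitol 24 h, 7 to 15 for NaCl 24 h against 6 h, 23 to 30 for sorbitol 24 h against 6 h, 0 to 5 for the difference of responses at 6 h, 2 to 18 for that at 24 h, 3 to 12 for the 0 h groups and 69 to 83 over the 6 groups. The shares over all tested probes moved as well. At NaCl 6 h the 12 contigs called without NaCl 0 h B were 7.84%, against 3.82% of all tested probes. The 31 called without NaCl 0 h C were 20.3%, against 23.4%.

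Among the named contigs 98 repeats with another setting lost the call, 1216 kept it, and 1 changed sign. The last was CL5Contig3 at NaCl 24 h, -0.45 against sorbitol 0 h (adjusted p = 0.782). There 2 of 3 samples were at the ceiling, so that neither its sign nor its size was measured. Of the settings, 18 left out 1 sample, often one outside the comparison, and these contigs were named for large called differences. Many calls were therefore likely to be kept. The authors' deposited table kept the NaCl 6 h call of CL177Contig1. It lost those of CL120Contig1, CL82Contig1, CL47Contig1, CL139Contig1, CL182Contig1 and CL76Contig1. All calls named for sorbitol 24 h against 0 h were kept in that table. Signal limits both ends: 11 contigs were too dim to test, and 26 reached the scanner's ceiling in at least 1 sample.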
